A study of Mus musculus with 4 samples.

Results

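The genes examined were the caspases, the Bcl2 family and the inhibitors of apoptosis in mouse sciatic nerve. They were taken by gene symbol, as every symbol that begins with Casp or Birc and a digit or with Bcl2, together with Bax, Bak1, Bad, Bid, Bik, Bbc3, Pmaip1, Mcl1, Xiap, Apaf1, Fas and Fasl. The rule used no measured value, and 40 of the 50593 genes in the table are described. The nerves made up 4 samples, of which 2 are labelled HSF V30M TTR and 2 are labelled HSF WT TTR. All came from mice 6 months old and of strain 129S1/SvImJ. Mice of both groups lack 1 copy of Hsf1, the gene of heat shock factor 1. HSF V30M mice also carry a transgene of human transthyretin with the V30M mutation and are described as lacking endogenous transthyretin, while HSF WT mice have no transgene. Treatment is not part of the design. The sources used here name neither the promoter of the transgene nor the mice behind each library. The methods state n = 4 for the sequencing, with no word on whether that is the number in each group, and the table holds 1 value per gene and group.

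Each value is an FPKM, a fragment number corrected for transcript length and sequencing depth, which allows levels to be compared between genes as well as between groups. With 1 value per group there is no spread between mice, so no difference below was tested and none can be called larger than the variation between animals. The only error that can be given is that of counting, from the number of fragments behind a value. Judged by what 1 fragment is worth, HSF WT libraries were 1.35-fold apart in depth and the HSF V30M libraries 1.18-fold apart, and the summed depth of HSF V30M was 1.30 times that of HSF WT. Intervals cover counting error alone. They are taken at the lowest number of fragments, so they can be too wide where the transcripts of a gene differ in length. Hsf1, heterozygous in both groups, had an FPKM of 7.94 in HSF V30M against 15.0 in HSF WT. Its ratio of 0.531 had an interval of 0.4562 to 0.6175 and was past the fold of 1.5 used below. Both groups are described with the same gene dose, and the cause of this difference was not tested. Mouse Ttr, null by design in HSF V30M, had 6.10 in the group so labelled and is listed at 0 in HSF WT. Reads of the human transgene cannot be told from those of the mouse gene here, so this gene does not check the labels. HSF V30M and HSF WT stand throughout for the groups so labelled, and every direction given below rests on those labels.

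Apoptosis removes cells by an intrinsic and an extrinsic route, which meet at the executioner caspases. In the intrinsic route, BH3-only proteins sense damage and release Bax and Bak1 from the pro-survival Bcl2 proteins, the outer mitochondrial membrane opens, and cytochrome c assembles Apaf1 and caspase 9 into the apoptosome. In the extrinsic route, a death receptor such as Fas activates caspase 8. Inhibitor of apoptosis proteins restrain caspases or direct ubiquitin to the complexes that start the process. In peripheral nerve these genes are known from the control of Schwann cell and neuron number in development and after injury.

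In sciatic nerve the machinery was present in both groups at much the same levels. A mean FPKM of at least 1 was reached by 27 of the 40 genes, and all 27 had at least 1 in each group. A gene was counted as past the fold when its ratio, taken as (HSF V30M + 1) over (HSF WT + 1), was over 1.5 in either direction. Of the 27, Bbc3 was past the fold with a higher value in HSF V30M, and Casp4 was past it with a lower value. The share was 3.70% of the 27 in each direction. Among all 15620 genes whose mean FPKM reached 1, 8.22% were past the fold and higher and 8.44% were past it and lower, and among 12715 protein-coding genes 5.03% and 5.32%. Read against the protein-coding genes, the counts of the family were near the background. The median log2 ratio of the 27 was -0.09, beside 0.00 for all genes and 0.00 for protein-coding genes. Of the 27, 12 had higher values in HSF V30M and 15 lower, beside 7876 and 7744 of all 15620 genes. Counts of direction within the small classes below were not tested. The remaining 25 lay between -0.44 and 0.49 on this scale, and 16 of the 27 lay within 0.25 of 0. The highest of the 25 was Bcl2l12 and the lowest was Casp8ap2.

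**Figure D1:**
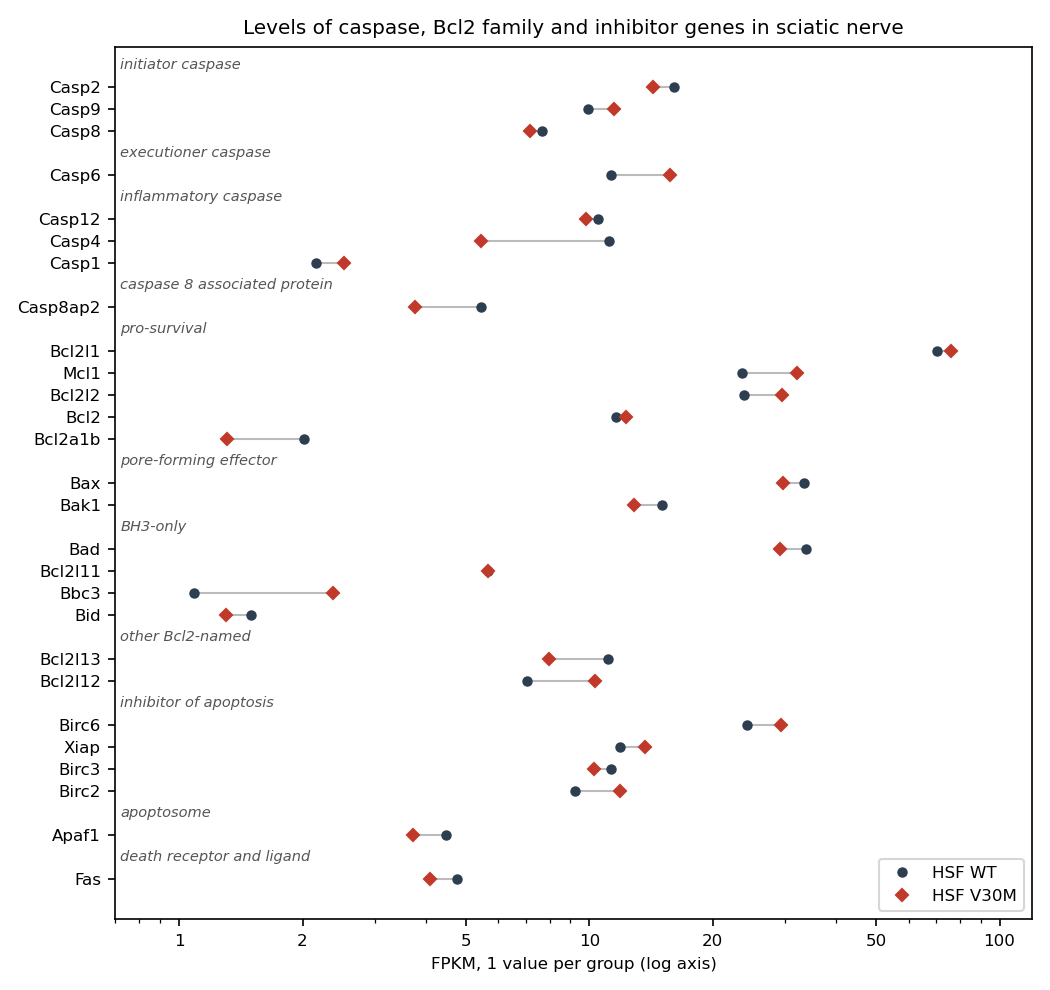
FPKM of the 27 genes with a mean of at least 1, grouped by role, on a log axis. Each gene has 1 value per group, a red diamond for HSF V30M and a dark circle for HSF WT, and the line between them is the difference. Casp4 and Bbc3 have the longest lines, and Bcl2l1 has the highest level in both groups (76.3 and 70.5).

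**Figure D2:**
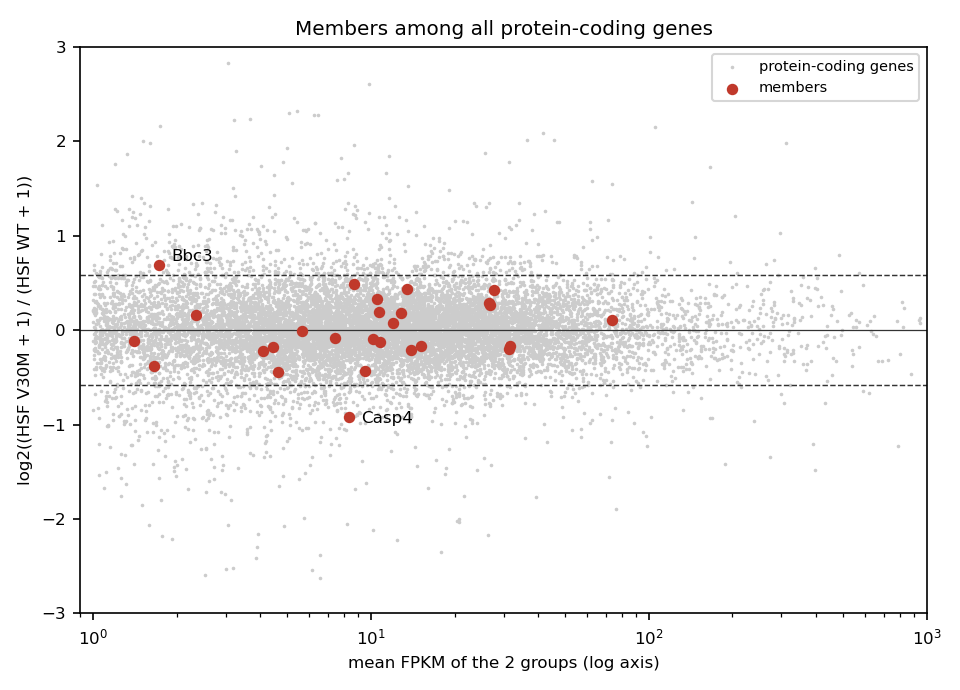
Mean FPKM of both groups (log axis) against the log2 of HSF V30M over HSF WT with 1 added to each value. Grey points are protein-coding genes whose mean FPKM reached 1, of which 38 lie outside the axes, red points are the 27 members, and dashed lines mark 1.5-fold. Casp4 (-0.92) and Bbc3 (0.69) are the members beyond the lines.

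Casp6, an executioner caspase known for cleaving lamin A, had an FPKM of 15.7 in HSF V30M against 11.3 in HSF WT. Its ratio of 1.39 had a counting interval of 1.18 to 1.64 and was not past the fold. Casp6 stood 7th among the 27 genes in HSF V30M and 11th in HSF WT. It was the most abundant caspase in HSF V30M, while Casp2 was in HSF WT.

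The inflammatory caspases Casp1, Casp4 and Casp12 are neighbours on the plus strand of chromosome 9 (GRCm38). Casp1 matures interleukin-1β, Casp4 (also called caspase 11) responds to bacterial lipopolysaccharide inside the cell, and Casp12 is linked to the endoplasmic reticulum. Casp4 (ENSMUSG00000033538, 5308828 to 5336783) stood at 5.44 FPKM in HSF V30M against 11.2 in HSF WT, 2.06-fold lower in HSF V30M. This rests on 146 to 172 fragments against 214 to 288, and its ratio of 0.486 had an interval of 0.391 to 0.602. Its neighbours were not past the fold. Casp1 had 2.53 and 2.16 (interval of the ratio 0.790 to 1.75), and Casp12 had 9.83 and 10.5 (0.746 to 1.17). Casp1 ends 1563 bases before Casp4 and Casp12 begins 8647 bases after it. Casp4 stood at 5.18 times the level of Casp1 in HSF WT and at 2.15 times in HSF V30M. Mice of 129 substrains are known for a Casp4 allele that gives little functional protein. Both groups carry the same strain label, and the allele was not analysed here.

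The sequences before the annotated starts of these 3 neighbours are shown because Casp4 was past the fold while the genes beside it were not. Each is the 250 bases before the start nearest the 5′ end of the gene, 5′ to 3′ on the plus strand, from RefSeq for GRCm38.p6. Capitals mark matches, on either strand, to the NF-kB consensus. Casp4 had matches at positions -93 to -83 and -39 to -30 relative to its start, and the other two windows had none. A match is a description of letters and not of binding.
Casp4, chr9:5308599-5308848: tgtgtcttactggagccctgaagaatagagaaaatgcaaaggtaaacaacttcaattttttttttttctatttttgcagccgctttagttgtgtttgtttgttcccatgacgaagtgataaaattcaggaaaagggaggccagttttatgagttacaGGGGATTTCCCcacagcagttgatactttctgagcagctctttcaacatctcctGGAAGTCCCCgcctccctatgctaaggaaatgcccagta
Casp1, chr9:5298267-5298516: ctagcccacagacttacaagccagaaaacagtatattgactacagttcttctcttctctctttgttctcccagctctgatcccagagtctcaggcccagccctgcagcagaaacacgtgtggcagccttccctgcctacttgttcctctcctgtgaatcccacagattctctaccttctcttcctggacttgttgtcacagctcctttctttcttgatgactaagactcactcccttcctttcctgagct
Casp12, chr9:5345226-5345475: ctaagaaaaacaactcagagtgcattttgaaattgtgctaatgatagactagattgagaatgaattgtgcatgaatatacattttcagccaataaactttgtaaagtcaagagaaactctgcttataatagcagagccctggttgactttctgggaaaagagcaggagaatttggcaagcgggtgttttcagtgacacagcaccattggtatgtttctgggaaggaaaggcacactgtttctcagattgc
The NF-kB consensus was found in 7.01% of 27025 promoter windows of this length, taking the first listed start of each gene, and in 2 of the 27 members that have a window. The other was Bbc3.

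The initiator caspases differed little. Casp2, which responds to DNA damage and chromosome missegregation, was the most abundant of them, with an FPKM of 14.3 in HSF V30M against 16.1 in HSF WT. Casp9, the caspase of the apoptosome, had 11.5 and 9.92. Casp8, which death receptors recruit, had 7.16 and 7.66. The interval of the ratio excluded 1 for Casp2, at 0.808 to 0.973, and included it for Casp9 and Casp8. Apaf1, the scaffold on which caspase 9 assembles, had 3.71 in HSF V30M against 4.47 in HSF WT. The interval of Apaf1 also included 1, at 0.626 to 1.10. The level of Casp9 was 3.11 times that of Apaf1 in HSF V30M and 2.22 times in HSF WT, with no interval computed. Of the extrinsic route, the death receptor Fas had 4.08 and 4.77, with an interval of 0.481 to 1.54 on as few as 29 and 24 fragments. Its ligand Fasl was at 0.05 and 0.0649, at most 2 fragments in either group, and a difference in Fasl was not detectable at this depth. Casp8ap2, which the symbol rule includes although it encodes a protein that binds caspase 8 and is no caspase, had 3.76 in HSF V30M against 5.46 in HSF WT.

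Of the pro-survival Bcl2 proteins, which hold Bax and Bak1 in check, 4 of the 5 whose mean FPKM reached 1 had higher values in HSF V30M, none of them past the fold. Bcl2l1, the gene of Bcl-xL, was the most abundant of all members, with an FPKM of 76.3 in HSF V30M against 70.5 in HSF WT, and its ratio of 1.08 had an interval of 1.02 to 1.15. Mcl1, whose protein is short-lived, had 32.0 and 23.6, a ratio of 1.36 with an interval of 1.16 to 1.59. Bcl2l2, the gene of Bcl-w, had 29.4 and 23.9, and Bcl2 itself had 12.3 and 11.6. The interval included 1 for both. That of Bcl2l2 is at the lowest number of fragments, 190 against 110, where its longest coding transcript would give up to 2718 and 1796. Bcl2l1 was at 6.20 times the level of Bcl2 in HSF V30M and at 6.06 times in HSF WT. Mcl1 stood 2nd among the 27 in HSF V30M and 6th in HSF WT.

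Bcl2a1b was the member of this group with the lower value in HSF V30M, at 1.31 against 2.01, on as few as 18 and 19 fragments, with an interval of 0.322 to 1.31. Bcl2a1 is a pro-survival gene of blood cells that the mouse holds in several near-identical copies, so its values per copy are uncertain. Bcl2a1a is listed at 0 in HSF V30M against 0.209 in HSF WT, and Bcl2a1d at 0.19 and 0.0977. Over their 516 coding bases, Bcl2a1b and Bcl2a1d differ at 6 positions (98.8% identity) and Bcl2a1a and Bcl2a1b at 11 (97.9%). Each of these pairs shares a stretch of 217 bases with no difference, and Bcl2a1a and Bcl2a1d share one of 314. The first 60 coding bases of each, from the GENCODE transcripts of GRCm38, are shown with capitals at the 6 positions that differ among the 3 copies. No stretch of this length holds more of the 12 differing positions of the coding sequence, so the copies are more alike elsewhere.
Bcl2a1a: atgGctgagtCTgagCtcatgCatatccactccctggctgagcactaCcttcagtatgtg
Bcl2a1b: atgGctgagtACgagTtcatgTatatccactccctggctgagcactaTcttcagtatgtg
Bcl2a1d: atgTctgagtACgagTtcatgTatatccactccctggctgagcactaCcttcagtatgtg

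Both pore-forming proteins had lower values in HSF V30M, again within the fold. Bax had an FPKM of 29.7 in HSF V30M against 33.4 in HSF WT, and Bak1 had 12.9 and 15.0. The intervals of both ratios included 1, at 0.764 to 1.04 and 0.691 to 1.06. The ratio of Bax to Bcl2, often read as a balance of death and survival genes, was 2.41 in HSF V30M against 2.87 in HSF WT. No interval was computed for this ratio, and those of Bax and of Bcl2 each included 1. Summed over the groups of the family, pro-survival FPKM was 152 in HSF V30M against 132 in HSF WT, and that of Bax and Bak1 was 42.6 and 48.4.

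Among the BH3-only genes, which start the intrinsic route, Bbc3 was the member past the fold with the higher value in HSF V30M. Bbc3 (ENSMUSG00000002083, chromosome 7, 16308393 to 16318205, plus strand) encodes Puma, a target of p53 that binds every pro-survival Bcl2 protein. Its FPKM was 2.37 in HSF V30M against 1.09 in HSF WT, on 83 to 98 and 27 to 37 fragments. The ratio was 2.18 with an interval of 1.4 to 3.5. In spite of this, Bbc3 stood 25th of the 27 genes in HSF V30M and last in HSF WT. Bad, a BH3-only protein controlled by growth factor signals, was the most abundant of the class, with 29.2 and 33.8. Bcl2l11, the gene of Bim, had 5.65 and 5.67, the ratio nearest to 1 among the 27. Bid, which links caspase 8 to mitochondria, had 1.30 and 1.5. Bik was at 0.79 and 0.670 and Pmaip1, the gene of Noxa, at 0.11 and 0.0990, both under a mean of 1. The window before the Bbc3 start holds overlapping matches to the NF-kB consensus, at positions -137 to -127. It is shown beside those of the caspases because Bbc3 was past the fold in the opposite direction. Of 3 starts listed for Bbc3, the 1 used lies inside the annotated gene, which begins further upstream.
Bbc3, chr7:16309333-16309582: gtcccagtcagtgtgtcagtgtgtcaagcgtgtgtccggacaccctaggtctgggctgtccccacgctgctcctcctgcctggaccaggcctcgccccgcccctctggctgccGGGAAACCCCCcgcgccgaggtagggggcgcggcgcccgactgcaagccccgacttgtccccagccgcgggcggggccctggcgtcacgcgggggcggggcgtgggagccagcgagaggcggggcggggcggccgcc

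Bcl2l12 and Bcl2l13 carry the family name and lie outside these classes. Bcl2l12 had an FPKM of 10.3 in HSF V30M against 7.07 in HSF WT, a ratio of 1.46 whose interval began at 1.01. Bcl2l13, a receptor for the removal of mitochondria, had 7.99 and 11.1, and its interval of 0.664 to 0.782 was among the narrowest. In the table it shares its locus with Bid.

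Of the inhibitors of apoptosis, 3 of the 4 whose mean FPKM reached 1 had higher values in HSF V30M, none past the fold. Birc6, a very large ubiquitin ligase that targets caspases, was the most abundant, with 29.3 in HSF V30M against 24.3 in HSF WT and an interval of 1.17 to 1.25. Xiap, which binds and inhibits caspases directly, had 13.7 and 11.9, with an interval of 1.06 to 1.24. Birc2 and Birc3, the ubiquitin ligases of the tumour necrosis factor receptor complex, lie side by side on chromosome 9 and had opposite orders. Birc2 had 11.9 in HSF V30M against 9.22 in HSF WT, and Birc3 had 10.3 and 11.3, with intervals that included 1 for both. At the lowest number of fragments, 46 against 25, the interval of Birc2 was 0.773 to 2.18. That number rests on its shortest coding transcript, of 378 bases, while the longest would give up to 948 and 601. No interval was computed there, so Birc2 cannot be said to differ from Birc6 and Xiap in this. Birc5, the gene of survivin and a component of dividing cells, was at 0.41 and 0.25, beside low levels of the cycling cell genes, whose 6 members summed to 6.75 and 7.60.

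**Figure D3:**
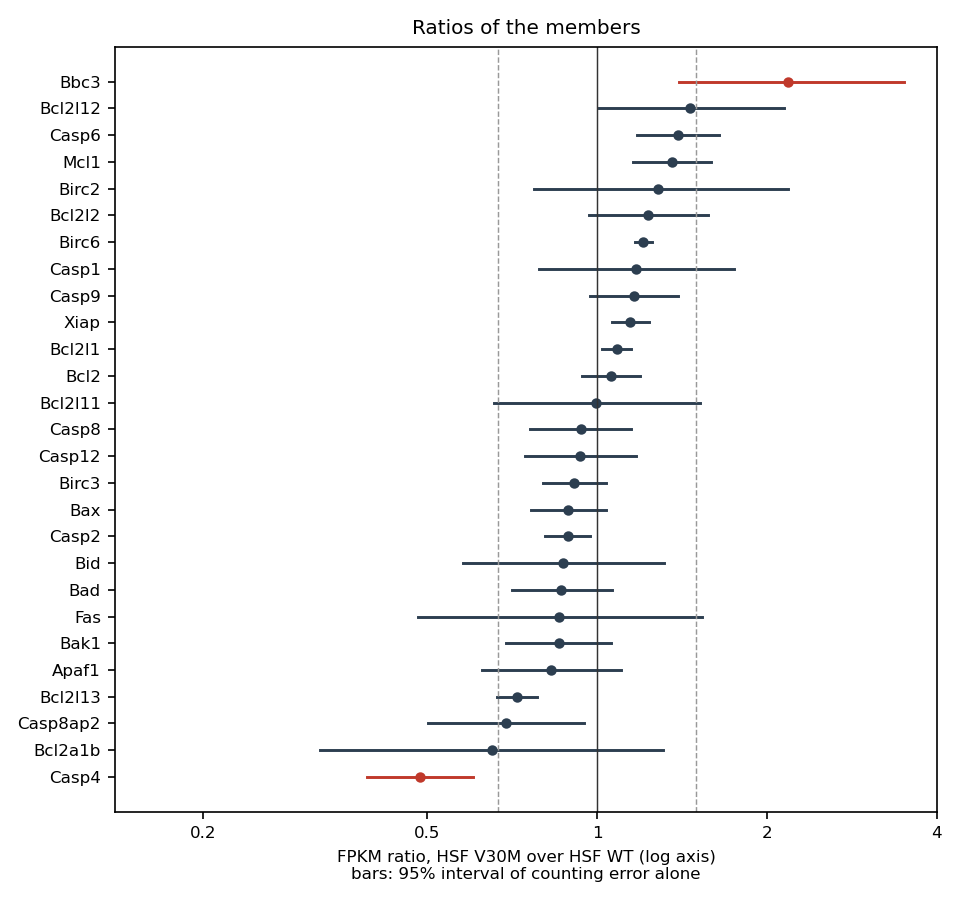
FPKM ratio of HSF V30M over HSF WT for the 27 genes, on a log axis, with the 95% interval of counting error as a bar and 1.5-fold as dashed lines. Red marks Casp4 and Bbc3, and Bbc3 lies at 2.18 and Casp4 at 0.486. Bars do not hold the variation between mice.

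The interval of counting error excluded 1 for 11 of the 27 genes, or 40.7%, of which 7 were higher and 4 lower in HSF V30M. This was so for 51.1% of protein-coding genes at any fold, so an interval that excludes 1 did not set these genes apart. Casp4 and Bbc3 met both this and the fold, as did 4.82% of protein-coding genes on the higher side and 5.05% on the lower. The remaining 13 members lay under a mean FPKM of 1. Casp14, a caspase of skin, and Bcl2a1c are listed at 0 in both groups, where a count of 0 allows up to 0.0692 in HSF V30M against 0.0971 in HSF WT for Casp14. Bcl2l10, Bcl2l14, Bcl2l15, Birc7 and the pseudogene Casp16-ps were at 0.02 to 0.50, with at most 15 fragments in a group, and no fold is given for them.

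Other genes of cell death were described from lists chosen by pathway. Of 59 listed, 58 are in the table and 47 had a mean FPKM of at least 1, of which Phlda3 was past the fold and higher in HSF V30M and Pycard was past it and lower. This is 1 of 47 in each direction, beside the 5.03% and 5.32% of protein-coding genes, which does not set these lists apart. The median log2 ratio of the 47 was -0.06. Phlda3, a p53 target that restrains Akt, had 68.2 in HSF V30M against 39.5 in HSF WT. Perp, another p53 target, had 9.21 and 5.82, just inside the fold at a log2 ratio of 0.58. Trp53, the gene of p53 itself, had 32.4 and 32.1, and the p53 targets Cdkn1a and Mdm2 had 126 against 155 and 18.0 against 17.5. The 8 genes of the p53 list had a median of -0.02. Of the 8, 4 had higher values in HSF V30M and 4 had lower ones. Ccng1, also on the list, had 11.0 in HSF V30M against 13.7 in HSF WT, with an interval of 0.728 to 0.895. The higher values of Phlda3 and Perp were therefore not shared by the list as a whole. Bbc3 is a member and is not on this list.

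Pycard, the adaptor that joins inflammasome sensors to caspase 1, had an FPKM of 4.81 in HSF V30M against 9.19 in HSF WT, a ratio of 0.524 with an interval of 0.457 to 0.599. Of the 6 pyroptosis genes with a mean of at least 1, 5 had lower values in HSF V30M, beside 7744 of all 15620 genes. The median of the 6 was -0.28, and this direction was not tested. The pore protein Gsdmd had 10.02 and 10.6 (interval of the ratio 0.806 to 1.12), and Dfna5 had 3.86 and 4.09 (0.742 to 1.205). The cytokine Il18 had 2.66 and 4.17 (0.372 to 1.09), so the intervals of these included 1. The DNA sensor Aim2 had 1.96 and 3.34 (0.431 to 0.797). Nlrp3 went the other way, at 1.11 and 0.954, and its interval included 1. Of 11 death receptor genes, 7 had lower values and none was past the fold. The most abundant were Tnfrsf1a, at 41.5 and 37.5, and Cflar, an inhibitor of caspase 8, at 39.7 and 37.9. In the lists of mitochondrial release (7 genes), caspase substrates (8), necroptosis (3) and other BH3 and Bcl2 proteins (4), none was past the fold, and their medians lay between -0.12 and 0.13. Cycs, the gene of cytochrome c, had 26.8 in HSF V30M against 29.2 in HSF WT, and Bok, a relative of Bax, had 33.3 and 25.7.

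Whole nerve was sequenced, and fewer cells of a type cannot be told from less RNA per cell. Markers of nerve were high in both groups, with Mbp at 3854 in HSF V30M against 3441 in HSF WT, and the 5 myelinating Schwann cell genes had a median log2 ratio of -0.02. The other 5 Schwann cell genes were less even, with a sum of 472 in HSF V30M against 325 in HSF WT. Among them S100b was past the fold and higher, at 328 against 200.98, and Sox10 had 75.7 and 54.8. Many markers of blood and lymphoid cells differed between the 2 group values, with no spread between mice to judge them by. All 5 B cell genes had lower values in HSF V30M, and their summed FPKM was 2.90 there and 26.4 in HSF WT. Cd22, Cd79a, Cd79b and Pax5 were past the fold, with log2 ratios of -2.42 to -1.42. For the 6 T cell genes the sums were 1.85 and 7.98, with 5 lower and Cd4 (0.52 and 3.88) and Cd3e (0.32 and 2.29) past the fold. Of the 6 macrophage genes 4 were lower and the sums were 85.7 and 113, Cd68 being past the fold at 15.5 and 30.9. The neutrophil genes summed to 104 and 30.8. S100a9, Ngp, S100a8, Camp and Ltf were past the fold and higher, while Csf3r was past it and lower, at 2.63 and 6.05. The erythrocyte genes summed to 292 and 101, with 6 of 6 higher and Hbb-bs, Hba-a1, Hba-a2, Hbb-bt and Slc4a1 past the fold. The globin genes are near-identical copies, and their values per copy are uncertain. Skeletal muscle genes summed to 32.6 and 112, and all 5 (Ckm, Tnnt3, Acta1, Myh4 and Ttn) were past the fold and lower. Of these, Ttn rests on as few as 3 and 5 fragments, and its interval of 0.076 to 2.52 included 1. Adipocyte genes, 5 of 5 lower, summed to 1131 and 1733, with Fabp4, Adipoq and Lep past the fold. None of these markers was at 0 in either group. The 6 cytotoxic lymphocyte genes summed to 1.23 and 1.57, with Ncr1 at 0 in both groups and Gzmb at 0 in HSF V30M. The 5 keratinocyte genes summed to 1.46 and 1.5, with Krt1 at 0 in both and Krt5 at 0 in HSF WT. The endothelial and fibroblast genes had medians of 0.24 and 0.01. The part of these cell types in the values of Casp4, Pycard and Bbc3 was not tested.

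**Figure D4:**
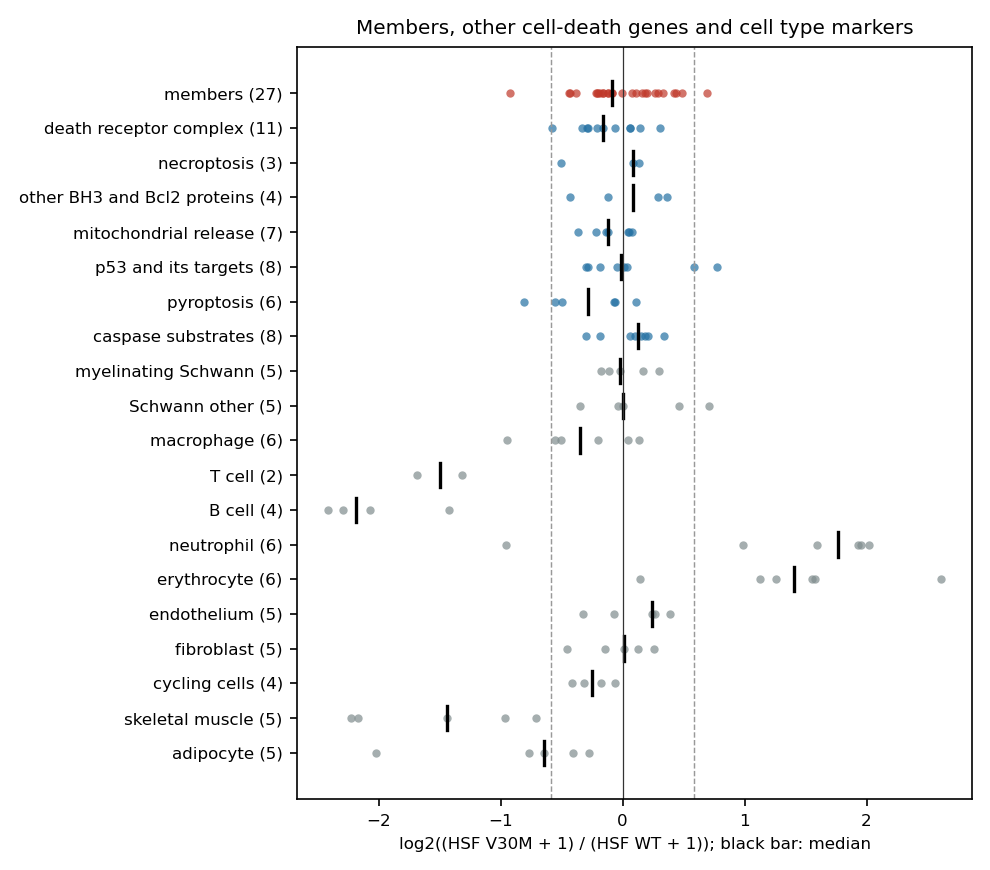
Log2 of HSF V30M over HSF WT, with 1 added to each FPKM, for the 27 members (red), other cell death genes (blue) and cell type markers (grey) whose mean FPKM reached 1. Each point is a gene, black bars are medians, numbers in brackets count the genes and dashed lines mark 1.5-fold. The members have a median of -0.09, the B cell genes one of -2.18 and the neutrophil genes one of 1.76.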

How the data were processed

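RNA of sciatic nerve was sequenced from 4 samples with Ion Torrent libraries. According to the study's methods and the labels, the authors aligned the reads to GRCm38 (C57BL/6J) with STAR and ran Cufflinks and Cuffdiff, whose versions are not given in the sources used here. The authors deposited 1 FPKM value per gene and group, made by Cuffdiff from the libraries of the group. The columns with the authors' own fold changes, test statistics, p-values and q-values were not used. Decimal commas were read as points, and 23 genes with too many alignments were left out.

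From the deposited FPKM, log2((HSF V30M + 1) / (HSF WT + 1)) was computed, without a test, for genes whose mean FPKM reached 1, and the fold was set at 1.5. This scale understates the change of low genes. Every member with an FPKM of at least 1 is named with its values. Genes of the other lists are named where past the fold, and up to 3 others per list by mean FPKM. Markers named for a value of 0 or as examples, and Perp, Ccng1, Aim2, Nlrp3, Cycs and the neighbouring genes, were chosen after their values were seen. Members and lists were chosen with earlier results of these data known. Of the 42 genes that the rule finds, 2 are not reported here, nor are 2 markers, and no count over members or lists includes them.

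Fragments were counted from FPKM times transcript length less 200.5 bases, divided by the worth of 1 fragment, 0.0481 and 0.0647 in the HSF WT libraries and 0.0391 and 0.0461 in those of HSF V30M. Within 1%, 97.5% of 1644 low HSF WT values fell on whole fragments. The lowest and highest number come from the shortest and longest coding transcripts of the GENCODE M21 basic set. Intervals of ratios are exact Clopper-Pearson intervals (95%) of the share of fragments, at the lowest number, and the limit at 0 is 3 fragments. They assume equal transcript use in both groups. Of the 27 members with a mean of at least 1, 15 share their locus in the table with another gene, and strand was not stated, so reads could be divided between them. The annotation held 50369 of the gene identifiers. Promoter windows were from RefSeq (27 of 27 members). Motifs were chosen after the values were seen. Scripts ran in Python 3.11.15 (tables: pandas 2.3.3; arrays: numpy 2.4.6; intervals: scipy 1.17.1; plots: matplotlib 3.10.9), and the steps were tested on simulated data.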

Additional observations from a re-analysis of the deposited data

How the results depend on the processing

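No paired analysis was possible because no value per mouse was given, only that of each group, and for the same reason no mouse was left out. Bbc3 alone was past the fold on the higher side and Casp4 on the lower side with a pseudocount of 0.1, without a minimum, with median-of-ratios scaling (factors of 1.0012 and 0.9988), among protein-coding genes, and when the counting interval also had to exclude 1, a setting added after the data were seen. Without a pseudocount Bcl2a1b joined them, making 2 lower. With a minimum mean FPKM of 5, which leaves 20 members, 0 were higher and 1 lower (Casp4). With a fold of 2, 0 were higher and 0 lower. For all genes the counts of 1284 higher and 1319 lower became 732 and 646 with a minimum of 5, 621 and 616 with a fold of 2, 639 and 676 among protein-coding genes, and 743 and 830 with the counting interval, each stricter by construction. The median of the members changed sign with a minimum of 5, from -0.09 to 0.0359. Of 81 values of single members under other pseudocounts or scaling, all 81 stayed within the counting interval. None changed sign, but a pseudocount cannot change the sign of a ratio. The shift of the scaling, 0.0036 on the log2 scale, was smaller than any positive value among the 27. The signs are therefore no check of the result. Depth limits Fasl, Pmaip1, the Bcl2a1 copies and Bcl2l14, which rest on a few fragments.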

Other observations

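Most genes around the members past the fold were not past it. Around Casp4 the other protein-coding genes within 500 kb whose mean FPKM reached 1 were Casp1 and Casp12. Around Bbc3, 2 of 19 such genes, Tmem160 (23.6 and 11.6) and Slc1a5 (183 and 107), were past the fold, both higher in HSF V30M, and none was lower. Among all protein-coding genes 5.03% were past the fold and higher and 5.32% past it and lower, so 2 of 19 in either direction is near the background. Sae1, which lies 2029 bases from Bbc3, had 23.4 and 28.0.

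Other motifs were searched in the 250 bases before the starts of 27 members. The interferon-gamma motif TTCNNNGAA was found before Casp12 and Fas, 7.41% of the 27 beside 7.18% of all windows. Heat shock factor pairs of the form GAANNTTC were found before Bad and Fas, with 6.78% of all windows, and those of the form TTCNNGAA before Casp4, with 7.10% of all windows. The p53 decamer, searched by name, was found before Bax and in 7.18% of all windows. The TATAAA motif was found before Bcl2l12 and in 13.0% of all windows. Both strands were searched. TTCNNNGAA, GAANNTTC and TTCNNGAA are palindromes in their fixed letters. A letter match shows no binding, and no match says only that these letters are not in this window.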
